A study of Arabidopsis thaliana with 2 samples.

Results

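PAD3, CYP71A12 and CYP71A13 are cytochrome P450 genes that carry out steps of camalexin synthesis in Arabidopsis thaliana. The 3 genes were selected by their gene codes (AT3G26830, AT2G30750 and AT2G30770) in the study's supplementary list of genes changed in csb3, called here the changed-gene list, and all 3 were found, each with 1 of the 22810 probe sets of the ATH1 array. The csb3 (constitutive subtilisin3) mutant has enhanced disease resistance and was isolated, in the Col-0 background, by constitutive activity of the promoter of the tomato subtilase gene P69C. It is affected in an enzyme of isoprenoid synthesis in plastids. RNA of untreated whole csb3 plants was compared with that of wild-type Col-0 plants, both 5 weeks old and grown with 10 h of light and 14 h of dark. The design text speaks of 5 plants, without saying whether each RNA pooled them, and each genotype has 1 array. Without a further array of either genotype the differences between plants of 1 genotype are unknown, and no p-value can be attached to any ratio. In RNA of whole plants, fewer cells of a type and less RNA per cell cannot be told apart.

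Camalexin is the characteristic indole phytoalexin of Arabidopsis, an antimicrobial compound that is made after infection and has low levels in healthy leaves. Its synthesis starts from tryptophan, which CYP79B2 and CYP79B3 convert to indole-3-acetaldoxime. CYP71A13, with its close relative CYP71A12, dehydrates the oxime to indole-3-acetonitrile, which is then activated and conjugated to glutathione. PAD3 (PHYTOALEXIN DEFICIENT 3), also called CYP71B15, forms the thiazole ring in the last step. The aldoxime is also the precursor of the indole glucosinolates, so CYP71A13 stands at a branch of indole metabolism. The transcription factor WRKY33, acting after a MAP kinase cascade, is the best known activator of these genes.

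The deposited intensities are MAS5 signals on a linear scale, a summary of the probes of 1 probe set, which the authors scaled to the same trimmed mean of 250.0 on both arrays. In csb3 13418 probe sets were at 50 or higher, and in Col-0 13529. Lower signals were raised to this floor and each csb3 signal was then divided by its Col-0 signal. A fold with 1 signal below the floor is thus a lower bound, written as at least, and none is given where both are below it. A gene was counted as higher or lower in csb3 at 2-fold or more. As a measure of spread between probe sets, the log2 ratios of different probe sets of the same gene had an SD of 0.65 (45 genes). This spread lies within 1 pair of arrays. It holds neither the differences between plants nor those between repeated labellings or hybridisations.

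All 3 camalexin P450 genes had higher signals in csb3 than in Col-0, by 6.44-fold for PAD3, by 3.35-fold for CYP71A13 and by at least 2.25-fold for CYP71A12. Over the whole array, 4.56% of the probe sets (1041 of 22810) were higher in csb3 by 2-fold or more. Nothing is read from the members' count beside this share, because the list they were found in holds genes reported as changed between csb3 and Col-0. Their values are a description.

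For CYP71A13, the aldoxime dehydratase that supplies indole-3-acetonitrile, the signal was 178.4 in csb3 and 53.3 in Col-0. The Col-0 signal lay just above the floor, and the csb3 signal was clearly above it. The log2 ratio was 1.74, or 3.35-fold, against the spread of 0.65 between probe sets. This ratio stood in position 198 from the top among the 12540 probe sets that both arrays measured at the floor or above.

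CYP71A12, which catalyses the same dehydration and acts with CYP71A13 in camalexin formation in roots, had a signal of 112.6 in csb3 and 3.2 in Col-0. It was the only member of the 3 whose Col-0 signal was below the floor, so its Col-0 level is known only as low. The difference was at least 2.25-fold, a log2 ratio of at least 1.17. The bare ratio of the signals was 35.2, a figure that rests on a Col-0 signal far below the floor. With a floor of 20 the bound was 5.63-fold, and with a floor of 100 it was 1.13-fold and no longer reached 2-fold.

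PAD3, the enzyme of the final step, had a signal of 494.0 in csb3 and 76.7 in Col-0. Both signals were above the floor, and the log2 ratio was 2.69. The 6.44-fold difference stood in position 38 among the same 12540 probe sets. It was past 4-fold, a size reached by 0.886% of all probe sets (202 of 22810), while CYP71A13 was short of it and the bound for CYP71A12 leaves its side of 4-fold unknown.

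**Figure D1:**
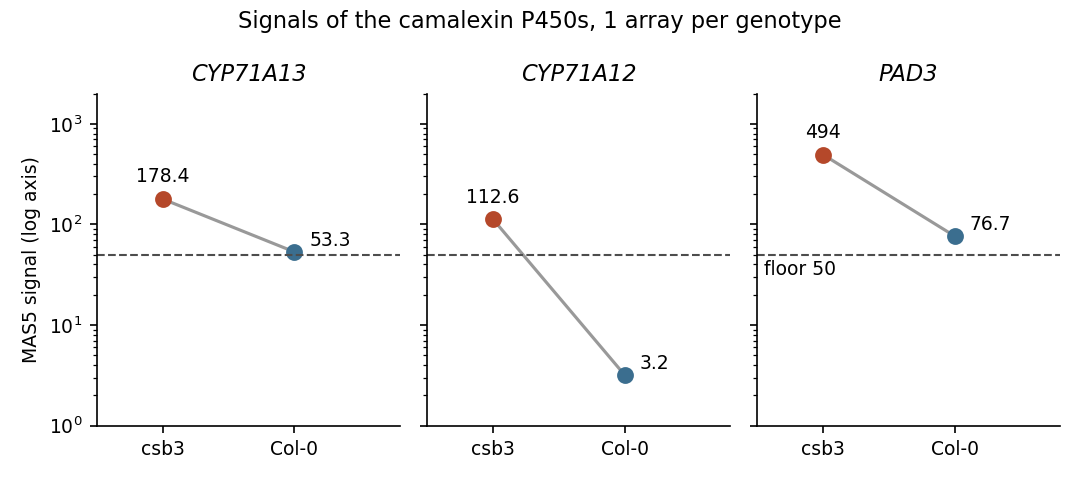
MAS5 signal (log axis) of CYP71A13, CYP71A12 and PAD3 in csb3 and in Col-0, 1 point per array, with the floor of 50 as a dashed line. The csb3 signals of 178.4, 112.6 and 494.0 lie above the floor, and of the Col-0 signals 53.3 and 76.7 lie above it and 3.2 below it. Probe sets differ in brightness, so levels are to be compared within a gene only.

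The ratios of PAD3 and CYP71A13 differed by 0.94 on the log2 scale, or 1.92-fold. The spread between probe sets gives such a difference an SD of 0.92, so this pair of arrays does not resolve the order of these genes. No such difference can be given for CYP71A12, whose ratio is a bound. The median log2 ratio over the 12540 probe sets measured on both arrays was 0.08. The 3 genes come from a list of changed genes. Their distance from this median, their positions and their size against 4-fold are thus description only.

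**Figure D2:**
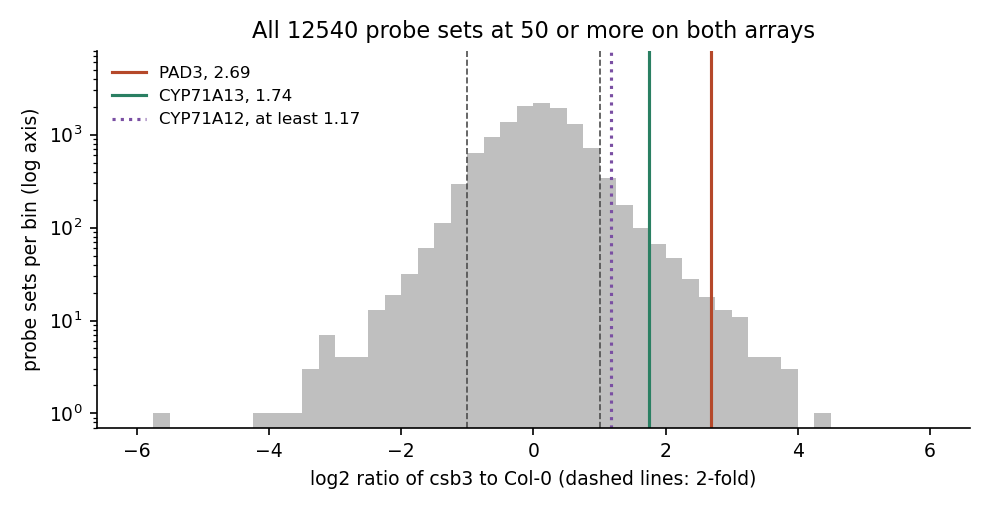
Number of probe sets (log axis) by log2 ratio of csb3 to Col-0, for the 12540 probe sets measured on both arrays, with dashed lines at 2-fold. PAD3 at 2.69 and CYP71A13 at 1.74 lie in the upper tail, and the dotted line marks the bound of 1.17 for CYP71A12, which is not among the probe sets counted.

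The probe sets of the 3 genes (258277_at for PAD3, 267567_at for CYP71A13 and 267565_at for CYP71A12) carry the plain ending _at. The changed-gene list pairs each with 1 gene code, and the annotation supplied with the array does not list them. Other endings, _s_at for 947 and _x_at for 128 of the 22810, mark probe sets that can read more than 1 gene. A plain ending alone does not show that only 1 gene is read. The annotation pairs 503 probe sets with several genes. CYP71A12 and CYP71A13 are closely related, and the probe sequences were not used here, so reading of one gene's transcript by the other's probe set was not tested. The CYP71A12 probe set read 112.6 in csb3 and 3.2 in Col-0, and that of CYP71A13 read 178.4 in csb3 and 53.3 in Col-0. RefSeq (TAIR10.1) also lets the span of CYP71A13 overlap that of AT2G30766, a protein-coding gene without a named probe set, and the annotation table gives no strand. It lists no overlap for CYP71A12 or PAD3.

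CYP71A12 and CYP71A13 lie near each other on chromosome 2, with AT2G30760 and AT2G30766 starting between them. AT2G30760 had signals of 9.2 in csb3 and 33.4 in Col-0, below the floor on both arrays, so no fold is given for it. On the side of CYP71A12 away from CYP71A13, AT2G30740 had 138.7 in csb3 and 104.4 in Col-0 (1.33-fold higher in csb3). On the other side of CYP71A13, AT2G30780 had 36.6 in csb3 and 61.0 in Col-0, at least 1.22-fold lower in csb3. PAD3 lies on chromosome 3, and AT3G26850, the nearest gene after it with a named probe set, had 45.9 in csb3 and 20.1 in Col-0, below the floor on both. Taking the 3 nearest protein-coding genes with a named probe set on each side of each member, 13 genes in all, none was higher or lower by 2-fold, and 10 of the 13 were below the floor on both arrays. The neighbours thus give a value for only a few genes. With 4.56% of all probe sets higher by 2-fold and 2.74% lower, a count of 0 in 13 says nothing particular about them.

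PAD3 belongs to the CYP71B subfamily and the other members to CYP71A, so the rest of both subfamilies was examined. The reference lists 53 CYP71A and CYP71B genes, and 22 of them have a named probe set, 2 of 16 in CYP71A (CYP71A12 and CYP71A13 themselves) and 20 of 37 in CYP71B. Without the 3 camalexin genes, 19 genes remain, all named by the annotation and not through the changed-gene list. Of these, 4 were higher in csb3 by 2-fold or more, none was lower, 7 were measured and short of 2-fold, and 8 were below the floor on both arrays. The 4 of 19 make 21.1%, beside 4.56% of all probe sets higher and 2.74% lower by 2-fold. Of the 11 genes at the floor or above on 1 or both arrays, 4 were higher and none lower, beside 7.23% higher and 4.33% lower of the 14407 probe sets that meet the same condition. The median log2 ratio of these 11 genes was 0.61, and that of the 14407 probe sets was 0.07. No test of the subfamily was made.

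The 4 were CYP71B23 (691.6 in csb3 and 115.4 in Col-0, 5.99-fold), CYP71B36 (194.0 in csb3 and 54.6 in Col-0, 3.55-fold), CYP71B24 (333.5 in csb3 and 119.9 in Col-0, 2.78-fold) and CYP71B29 (130.4 in csb3 and 55.6 in Col-0, 2.35-fold). CYP71B23 is in the changed-gene list and the other 3 are not. PAD3 had a larger ratio than any of the 4, but it exceeded that of CYP71B23 by less than the spread between probe sets. CYP71B23, CYP71B24 and CYP71B36 lie in a run of CYP71B genes on chromosome 3 from AT3G26150 to AT3G26330, apart from PAD3. Reading of the transcript of one gene of this run by the probe set of another was not tested. Within this run 3 of 11 genes were higher by 2-fold, beside 4.56% of all probe sets, and no test of the run was made. Another 4 were measured and short of 2-fold, and 4 were below the floor on both arrays. Of those short of 2-fold, CYP71B26 had 824.1 in csb3 and 540.6 in Col-0 (1.52-fold higher in csb3), CYP71B34 had 376.6 in csb3 and 336.5 in Col-0, CYP71B35 had 139.1 in csb3 and 144.1 in Col-0, and CYP71B22 had 85.2 in csb3 and 97.4 in Col-0.

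**Figure D3:**
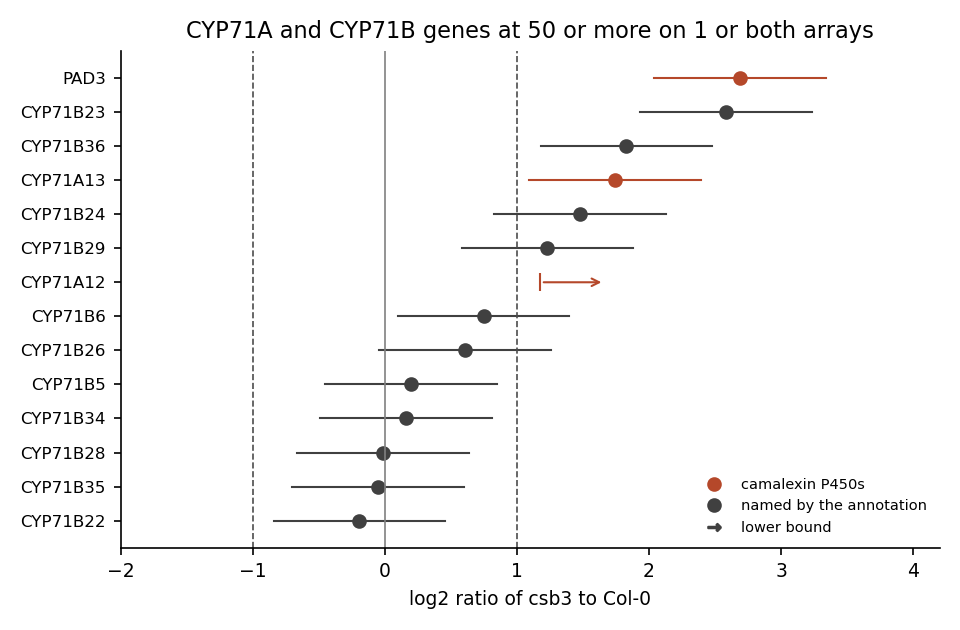
Log2 ratio of csb3 to Col-0 for the 14 CYP71A and CYP71B genes at 50 or more on 1 or both arrays. Bars are 1 SD (0.65) of the spread between probe sets of the same gene, the arrow marks a lower bound and dashed lines mark 2-fold. PAD3, CYP71A13 and CYP71A12 (red) and 4 CYP71B genes lie above 2-fold, and the other 7 lie between -0.19 and 0.75.

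Other genes of camalexin and indole metabolism were described from lists of its synthesis, regulation, transport and supply. Of 80 such genes, 77 bear their listed symbol in the reference table and 11 of these have a named probe set, so most of the pathway is not described here. CYP79B2, CYP79B3, WRKY33 and GSTF6 are among those without one, and so are all the counted genes of tryptophan synthesis and both P450 reductases. Of the 11, 6 were higher in csb3 by 2-fold or more and none was lower, beside 4.56% higher and 2.74% lower of all probe sets. All 6 belong to the 7 that take their name from the changed-gene list alone, and so were picked as changed. Of the 4 named by the annotation none reached 2-fold, which says little beside the shares over the array. This split rests in part on the symbol check, because AT1G26380 and AT2G04400, listed but left out of the counts for lack of a symbol, are named by the annotation and were higher by at least 6.64-fold and by 2.45-fold. A share over the 11 would therefore not describe the pathway.

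Among the other steps of synthesis, GSTU4, a glutathione transferase found with the camalexin enzymes, had 582.4 in csb3 and 77.3 in Col-0 (7.53-fold). CYP71B6, which turns indole-3-acetonitrile to other products and so draws on the same intermediate, had 1017.2 in csb3 and 605.6 in Col-0. Its 1.68-fold difference, a log2 ratio of 0.75, was short of 2-fold and close to the spread of 0.65. CYP71B6 is the only gene of the synthesis list named independently of the changed-gene list.

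Among the regulators, PAD4, the lipase-like partner of EDS1 that is needed for camalexin after some bacterial infections, had 268.4 in csb3 and 40.0 in Col-0 (at least 5.37-fold). WRKY18, a transcription factor that acts with WRKY40 to restrain defence genes, had 486.6 in csb3 and 132.0 in Col-0 (3.69-fold). NAC042, a NAC factor that promotes expression of camalexin genes, had 144.7 in csb3 and 40.4 in Col-0 (at least 2.89-fold). ABCG40, a pump of the plasma membrane linked to camalexin secretion, had 429.9 in csb3 and 92.1 in Col-0 (4.67-fold). These 4 genes are named only through the changed-gene list.

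In related indole pathways, AAO1, an aldehyde oxidase that forms indole-3-carboxylic acid, had 323.4 in csb3 and 77.2 in Col-0 (4.19-fold). AT1G26380, which the changed-gene list describes as an FAD-linked oxidoreductase, had 332.2 in csb3 and 32.6 in Col-0 (at least 6.64-fold). It is named by the annotation as well. CYP82C2, which hydroxylates indole carbonyl nitrile, was below the floor on both arrays at 32.1 in csb3 and 2.3 in Col-0. UGT74B1, a glucosyltransferase of glucosinolate synthesis, had 1019.8 in csb3 and 883.8 in Col-0 (1.15-fold), and is the 1 gene of the glucosinolate list with a named probe set. In the supply of glutathione, glutathione reductase GR1 had 1969.7 in csb3 and 1454.4 in Col-0 (1.35-fold higher in csb3) and sulfite reductase SIR had 1433.5 in csb3 and 1845.3 in Col-0 (1.29-fold lower).

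**Figure D4:**
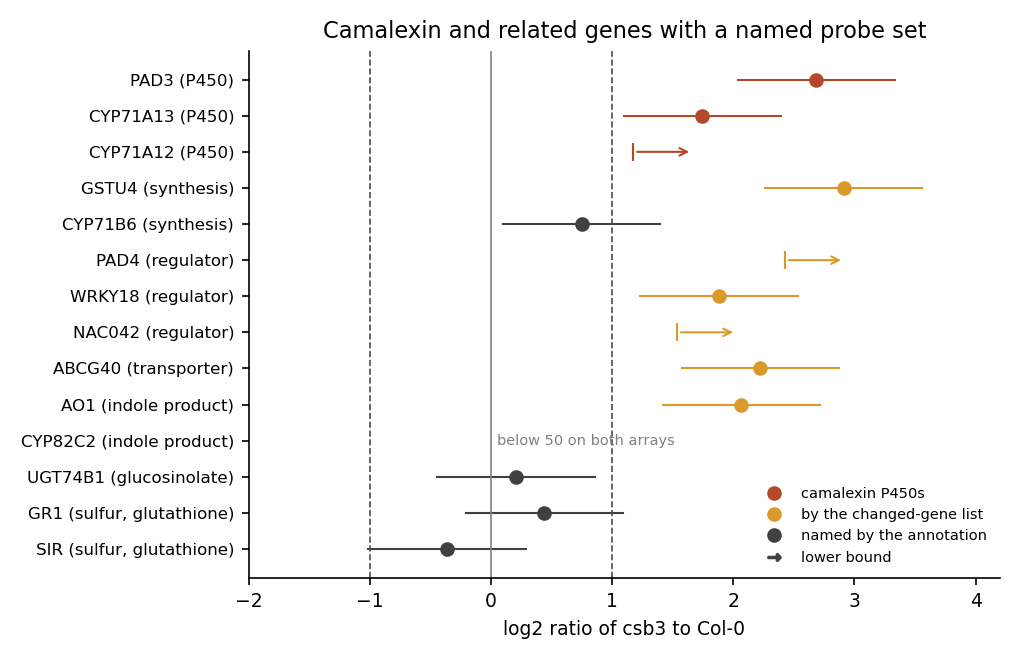
Log2 ratio of csb3 to Col-0 for the 3 camalexin P450s (red) and 11 other genes of camalexin and indole metabolism, with those named through the changed-gene list in yellow and those named by the annotation in black. Bars are 1 SD (0.65) of the spread between probe sets of the same gene, arrows mark lower bounds and dashed lines mark 2-fold. AAO1 is drawn under its reference symbol AO1. The 4 black genes lie between -0.36 and 0.75.

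Among the named nuclear probe sets, those with the most similar pair of signals were found by their distance from each member over the 2 arrays. The distance was taken on the log2 scale without a floor. The 9081 probe sets not named here were left out, and of those the annotation does not list, only ones in the changed-gene list have a name. For PAD3 they were the kinase ARCK1 (519.3 in csb3 and 75.1 in Col-0), CYP81D8 (522.1 in csb3 and 74.0 in Col-0) and GSTU4. For CYP71A12 they were XTH33 (106.2 in csb3 and 3.2 in Col-0), the jasmonate-oxidising CYP94B3 (117.7 in csb3 and 3.4 in Col-0) and AT1G51860. For CYP71A13 they were AT5G09290 (176.1 in csb3 and 53.4 in Col-0), AT3G57700 and AT4G23885. The distances were between 0.02 and 0.24. Likeness over 2 arrays is weak, since many probe sets share a pair of values.

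**Figure D5:**
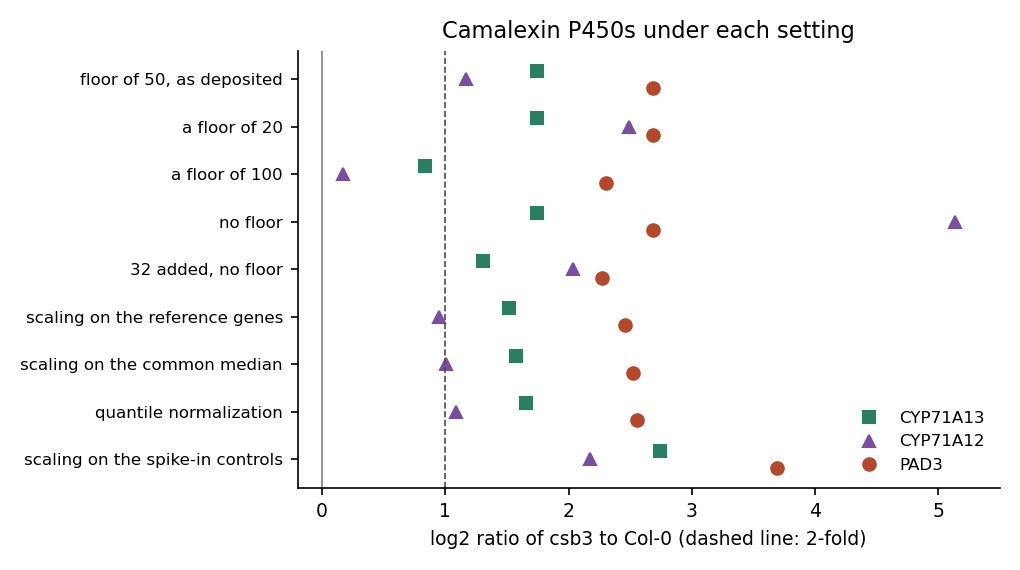
Log2 ratio of csb3 to Col-0 for CYP71A13, CYP71A12 and PAD3 under the main setting (top row) and 8 others, with a dashed line at 2-fold. PAD3 lies between 2.28 and 3.69, CYP71A13 between 0.84 and 2.74, and CYP71A12 between 0.17 and 5.14.

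PAD3 stayed past 2-fold in each of the 8 other floors and scalings tried. CYP71A13 did so in all but the floor of 100, where it was at 1.78-fold, and CYP71A12 fell short of 2-fold with that floor and with scaling on a pair of reference genes (1.93-fold). The tissue label could be checked with few genes. Rubisco activase RCA, a leaf gene, had 7432 in csb3 and 12691 in Col-0. Of 7 root markers 3 have a named probe set, with a summed signal of 1277 in csb3 and 58.5 in Col-0. Nearly all of it came from the beta-glucosidase PYK10 (1220 in csb3 and 27.8 in Col-0), while EXPA7 and EXPA18 of root hairs were below the floor on both arrays. The 3′ to 5′ signal ratio of actin, a sign of RNA quality, was 4.91 in csb3 and 2.06 in Col-0, and 4 of 6 such ratios of actin, GAPDH and ubiquitin were higher in csb3. Markers of flowers and seeds have no named probe set. The part of tissue content and of RNA quality in the higher signals of the camalexin genes was not tested.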

How the data were processed

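RNA of csb3 and of Col-0 plants was labelled and hybridised to Affymetrix ATH1 arrays, 1 per genotype. The deposited values are signal intensities per probe set on a linear scale, which the authors computed with MAS5 and scaled, as the values show, to the same trimmed mean on each array (without the lowest and highest 2%). Array number limits the precision. The methods also describe SAM on triplicates, which 1 array per genotype does not allow. The study's list of changed genes was used for its probe sets and gene codes and for 1 gene description.

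Signals below 50 were raised to 50 and csb3 was divided by Col-0, on the log2 scale, with Python 3.11.15, NumPy 2.4.6 and pandas 2.3.3, and drawn with matplotlib 3.10.9. The counting of calls at 2-fold was run on simulated signals with exact 4-fold changes planted in bright probe sets. The planting fixed their calls, so this checks the counting alone. It does not check calls near 2-fold or near the floor. The annotation named 13510 probe sets for 1 gene, that list named 219 more, and 3 on which they differ were left unnamed. Names were updated through RefSeq (TAIR10.1), whose positions served only for gene order and overlap and are not printed, because the array names no build. Of 112 listed genes, 5 whose symbol RefSeq does not bear, a pair of reference genes among them, were left out of the counts.

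The genes named are the 3 members, the listed genes, the CYP71A and CYP71B genes, the 3 nearest named neighbours on each side and the 3 named nuclear probe sets nearest in signal. A gene with several probe sets is shown by the brightest. The members, the lists and the 8 alternatives (other floors, 32 added, other scalings) were chosen with earlier results of these data known.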

Additional observations from a re-analysis of the deposited data

How the results depend on the processing

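No paired analysis was possible because only 1 array represents csb3 and 1 Col-0. Of 48 recomputed values, 34 kept within the spread between probe sets or within 1.5 times the main count. The log2 ratios of the 3 genes stayed higher in csb3 in every setting, while the other values are counts and have no direction. PAD3 moved only with scaling on the spike-in controls, to a log2 ratio of 3.69. CYP71A13 moved to 0.84 with a floor of 100 and to 2.74 with spike-in scaling. CYP71A12 moved to 2.49 with a floor of 20, 0.17 with a floor of 100, 5.14 with no floor, 2.04 with 32 added to each signal and 2.17 with spike-in scaling. With a floor of 100, 1 of the 3 camalexin P450s was higher by 2-fold, and 3 CYP71A and CYP71B genes were, against 7 with the floor of 50 and 11 with spike-in scaling. Over the array, 2698 probe sets were higher with no floor, 660 with scaling on the reference genes and 7879 with spike-in scaling, which moves the median log2 ratio of probe sets measured on both arrays to 1.08. Against 1041 higher and 624 lower by 2-fold in the main setting, there were 2698 higher and 3559 lower with no floor, 660 higher and 1174 lower with reference-gene scaling, 739 and 994 with a common median, 818 and 777 with quantile normalization, and 7879 and 79 with spike-in scaling. A higher floor lowers ratios of dim genes by its construction, and the cause of the spike-in difference (all 18 spike-in probe sets were lower in csb3, median log2 ratio -0.98) was not tested. Signal over background limits CYP71A12 most, since its Col-0 signal is among 9281 below the floor.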

Other observations

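Beyond the CYP71 subfamilies, 10 further cytochrome P450 genes are named through the changed-gene list alone, and 5 of them were higher in csb3 by 2-fold or more, none lower. That list holds genes reported as changed between csb3 and Col-0, so these counts are no evidence of a direction. Over all probe sets, 4.56% were higher and 2.74% lower by 2-fold. These families were examined after their values had been seen. CYP81D8 had 522.1 in csb3 and 74.0 in Col-0 (7.06-fold). CYP710A1, which makes the sterol stigmasterol, had 278.0 in csb3 and 57.0 in Col-0 (4.88-fold). CYP76C2 had 156.1 in csb3 and 9.1 in Col-0 (at least 3.12-fold), and CYP94B3, which inactivates jasmonoyl-isoleucine, was at least 2.35-fold higher. The probe set of CYP76C6 (178.7 in csb3 and 33.9 in Col-0) has the ending _s_at and can read more than 1 gene. Of the 23 P450 genes named by the annotation, 19 are the CYP71B genes already counted above. The 4 that were higher are all among these 19. None of the 23 was lower, and 10 were below the floor on both arrays. Among all probe sets at the floor or above on 1 or both arrays, 7.23% were higher and 4.33% lower.

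Among glutathione transferases, the 4 named through the changed-gene list alone, and so picked as changed, were higher in csb3. Besides GSTU4 these were GSTU8 (257.1 in csb3 and 46.8 in Col-0, at least 5.14-fold), GSTU10 (229.0 in csb3 and 21.4 in Col-0, at least 4.58-fold) and GSTU3 (113.8 in csb3 and 21.5 in Col-0, at least 2.28-fold). Of the 13 named by the annotation none reached 2-fold in either direction and 7 were below the floor on both arrays. With 4.56% of all probe sets higher and 2.74% lower, a count of 0 in 13 says nothing particular about the family. GSTL3 had 1210 in csb3 and 2272 in Col-0 (1.88-fold lower in csb3), and GSTU20 had 2046 in csb3 and 3154 in Col-0 (1.54-fold lower).

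Of the annotation-named genes listed for tryptophan synthesis whose symbol the reference does not bear, AT2G04400 had 1363 in csb3 and 556.8 in Col-0 (2.45-fold higher in csb3), and AT4G02610 had 147.7 in csb3 and 118.1 in Col-0. AT2G04400 is not in the changed-gene list.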
